A study of Mus musculus with 6 samples.

Results

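Glutathione and antioxidant defence genes were described in cell lines grown from mouse tumours. The set was chosen by gene symbol alone: the glutathione transferases of the Gsta, Gstm, Gstp, Gstt, Gstk and Gsto families, the glutathione peroxidases, peroxiredoxins, thioredoxin reductases and superoxide dismutases, and 11 single genes (Gclc, Gclm, Gss, Gsr, Nqo1, Hmox1, Srxn1, Txn1, Cat, Nfe2l2 and Keap1). It held 52 of the 55401 genes in the files, and the rule uses no measured value. The samples were RNA libraries of 6 lines cultured from primary tumours of C57BL/6 mice, 3 labelled as coming from Rag1KO mice (replicates 1, 3 and 7) and 3 labelled as coming from WT mice (replicates 2, 4 and 6). Mice without Rag1 make no mature T or B cells, and the comparison addressed how tumour cells that grew in such hosts differ from those that grew in immunocompetent ones. The labels give no treatment, age, host sex or tumour type, and do not say whether each line came from a separate animal. The p-values below therefore measure only the spread between these lines.

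Glutathione is the main small thiol of mammalian cells. It is made by glutamate-cysteine ligase and glutathione synthetase, is spent by glutathione peroxidases on peroxides and by glutathione transferases on electrophiles, and is recycled by glutathione reductase with NADPH. Peroxiredoxins and the thioredoxin system remove peroxides in parallel, superoxide dismutases and catalase handle superoxide and hydrogen peroxide, and the transcription factor NRF2, encoded by Nfe2l2 and held down by KEAP1, drives many of these genes through antioxidant response elements.

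Promoter sequences are given for 5 members: Prdx1, Nfe2l2 and Txnrd1, whose windows hold the core letters of the antioxidant response element, and Gpx7 and Gstm4, 2 of the genes without a read in the line labelled WT 6. Each is the 300-base window of RefSeq, build GRCm38.p6, from 250 bases before to 50 bases after the start of the gene, written 5′ to 3′ in the direction of the gene. In the first 3 the capitals mark TGACNNNGC, searched on both strands, and in the last 2 they mark CG pairs.
Prdx1 (chr4:116685349-116685648, plus strand): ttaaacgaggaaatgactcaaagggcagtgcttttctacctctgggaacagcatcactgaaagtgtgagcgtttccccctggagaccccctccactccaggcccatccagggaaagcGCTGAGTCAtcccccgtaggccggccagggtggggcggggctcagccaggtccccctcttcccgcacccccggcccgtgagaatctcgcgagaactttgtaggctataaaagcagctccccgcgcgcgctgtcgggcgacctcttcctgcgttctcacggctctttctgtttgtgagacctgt
Nfe2l2 (chr2:75704614-75704913, minus strand): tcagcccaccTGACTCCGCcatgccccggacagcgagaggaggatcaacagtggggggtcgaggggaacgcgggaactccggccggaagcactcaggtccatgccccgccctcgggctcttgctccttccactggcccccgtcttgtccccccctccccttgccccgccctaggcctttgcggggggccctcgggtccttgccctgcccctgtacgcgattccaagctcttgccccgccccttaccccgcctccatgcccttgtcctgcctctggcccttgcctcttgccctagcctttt
Txnrd1 (chr10:82858956-82859255, plus strand, 1 of 3 windows of this gene): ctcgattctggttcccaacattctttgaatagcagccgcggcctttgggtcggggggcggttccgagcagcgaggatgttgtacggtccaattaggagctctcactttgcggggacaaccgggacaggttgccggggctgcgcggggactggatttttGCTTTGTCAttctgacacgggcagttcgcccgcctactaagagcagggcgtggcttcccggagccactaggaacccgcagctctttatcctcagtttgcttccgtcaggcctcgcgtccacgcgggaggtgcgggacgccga
Gpx7 (chr4:108406664-108406963, minus strand): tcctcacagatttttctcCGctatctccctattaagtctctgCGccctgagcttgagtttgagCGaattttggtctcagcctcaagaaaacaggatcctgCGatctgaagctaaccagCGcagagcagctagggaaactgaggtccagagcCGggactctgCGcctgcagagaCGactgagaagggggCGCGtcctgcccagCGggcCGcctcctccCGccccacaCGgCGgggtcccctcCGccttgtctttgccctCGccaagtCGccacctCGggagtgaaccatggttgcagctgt
Gstm4 (chr3:108044810-108045109, minus strand): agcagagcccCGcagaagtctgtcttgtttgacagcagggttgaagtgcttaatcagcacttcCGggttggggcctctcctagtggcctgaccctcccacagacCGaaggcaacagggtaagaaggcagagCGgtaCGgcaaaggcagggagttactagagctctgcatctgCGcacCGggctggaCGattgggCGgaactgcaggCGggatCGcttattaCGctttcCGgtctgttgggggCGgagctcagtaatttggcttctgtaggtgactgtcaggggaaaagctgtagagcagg

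The Prdx1 match began 133 bases upstream of the start and lay on the opposite strand, where it reads TGACTCAGC and so also holds TGACTCA, the letters bound by AP-1. The Nfe2l2 match, TGACTCCGC, began 240 bases upstream, and the Txnrd1 match, TGACAAAGC on the opposite strand, 92 bases upstream. Distances are from the RefSeq start, which for Nfe2l2 lies outside the GENCODE M21 span of the gene given below. Of the 45 members matched by symbol in the RefSeq table, 9 had TGACNNNGC in at least 1 window, namely Gclm, Gsta3, Gstm5, Gstm7, Nfe2l2, Prdx1, Sod1, Srxn1 and Txnrd1, against 3781 of 27025 genes in the table (14.0%). Windows of members held a median of 13 CG pairs, against 7 over all windows of the table. Gpx7 held 19 and Gstm4 14. Hmox1, Gclc, Sod3, Gsr, Prdx6, Gstt2 and Gsta4 had no entry. A match is a description of letters in a short window and not a measured binding site.

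The libraries held 55409583 to 62998051 reads, and values are normalized counts, in which 1 read was worth 0.880 to 1.16 depending on the library. Rag1 itself had reads only in the lines labelled Rag1KO, with 39.3, 126 and 177 normalized counts. It had no read in any of the 3 lines labelled WT, where 3 reads would be 2.64 to 3.02. Whether the Rag1 reads came from an intact or an altered gene was not tested. The line labelled WT 6 stood apart. It had 206 normalized counts of the collagen gene Col1a1, against 478322 to 1051710 in the other 5 lines, and 0.880 (1 read) of the fibroblast surface gene Thy1, against 29802 to 81487 normalized counts. Col1a2 was also lowest there (151806, against 434020 to 684707). The fibroblast markers Col3a1 (126015), Pdgfra (16592), Dcn (412) and Lum (78.3) lay within the range of the other 5 lines. The lines labelled Rag1KO had 1.94 to 15.3 normalized counts of Xist, the RNA of the inactive X chromosome, and 1161 to 1747 of the Y-linked gene Kdm5d. The line labelled WT 6 resembled them in these genes, with 5.28 of Xist and 1994 of Kdm5d, while the lines labelled WT 2 and WT 4 had 59775 and 32733 of Xist and no read of Kdm5d. Y-linked Ddx3y and Uty also had reads in WT 6 (4345 and 1196). Y-linked Eif2s3y did not follow, with 1438 to 2944 in the lines labelled Rag1KO and no read in any line labelled WT, WT 6 included. Without WT 6, host label and sex-linked expression therefore cannot be told apart. The fibroblast markers summed to 1071374 to 1969817 normalized counts in the lines labelled Rag1KO, and to 295110 to 1747095 in the lines labelled WT. The 8 leukocyte markers summed to 313 to 1780 normalized counts in the lines labelled Rag1KO and 132 to 732 in the lines labelled WT, with Cd3e at 0 in all 6 lines, and 4 of the 8 passed 3 reads in any line. Of the 6 epithelial markers, 5 passed 3 reads in at least 1 line, and Epcam had no read in any. They summed to 13.6 to 49.8 normalized counts in the lines labelled Rag1KO. In WT 2, WT 4 and WT 6 the sums were 57.4, 347 and 9.68. The part of these marker differences in the results below was not tested.

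No member passed the test between host labels. Of the 52 members, 45 had enough reads to be tested, leaving out Gpx2, Gpx5, Gpx6, Gsta1, Gstm3, Gstp3 and Gstt4. None of the 45 had an adjusted p under 0.05 in limma, where 1 of 16137 genes did (0.0062%), the Y-linked gene Eif2s3y. At an unadjusted p under 0.05, 4 members passed (Gstk1, Gstm6, Gpx1 and Prdx1), against 4.67% of all genes tested. In 7 members all 3 lines labelled Rag1KO lay on one side of all 3 lines labelled WT: Gstk1, Gstm4, Gstm6, Gpx7, Sod1 and Keap1 were higher in the lines labelled Rag1KO, where 5.6% of all genes tested were, and Prdx1 was lower, where 6.49% were. The log2 fold change, Rag1KO minus WT, was above 0 for 28 of 45 members (62.2%), with a median of 0.18, against 8066 of the 16137 genes and a median of -0.0003. With the line labelled WT 6 left out, 48 members could be tested, 21 were above 0 and the median was -0.09, against -0.01 over all genes. The sign of the median thus rested on that line. In the same 5 lines no member had an adjusted p under 0.05 in limma (0.0298% of genes did) and 5 had an unadjusted p under 0.05 (4.12% of genes). There 6 members were higher in the lines labelled Rag1KO without overlap (9.6% of genes) and 7 lower (10.9% of genes), among them, by construction, the 7 that did not overlap with all lines. DESeq2 on all 6 lines called no member (0.403% of genes) and 4 at an unadjusted p under 0.05 (6.54% of genes). Without WT 6 it called Hmox1 (0.901% of genes), with 8 members at an unadjusted p under 0.05 (7.49% of genes). edgeR on all 6 lines called no gene, and at an unadjusted p under 0.05 no member either (4.44% of genes). The plot of fold changes shows both fits gene by gene.

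**Figure D1:**
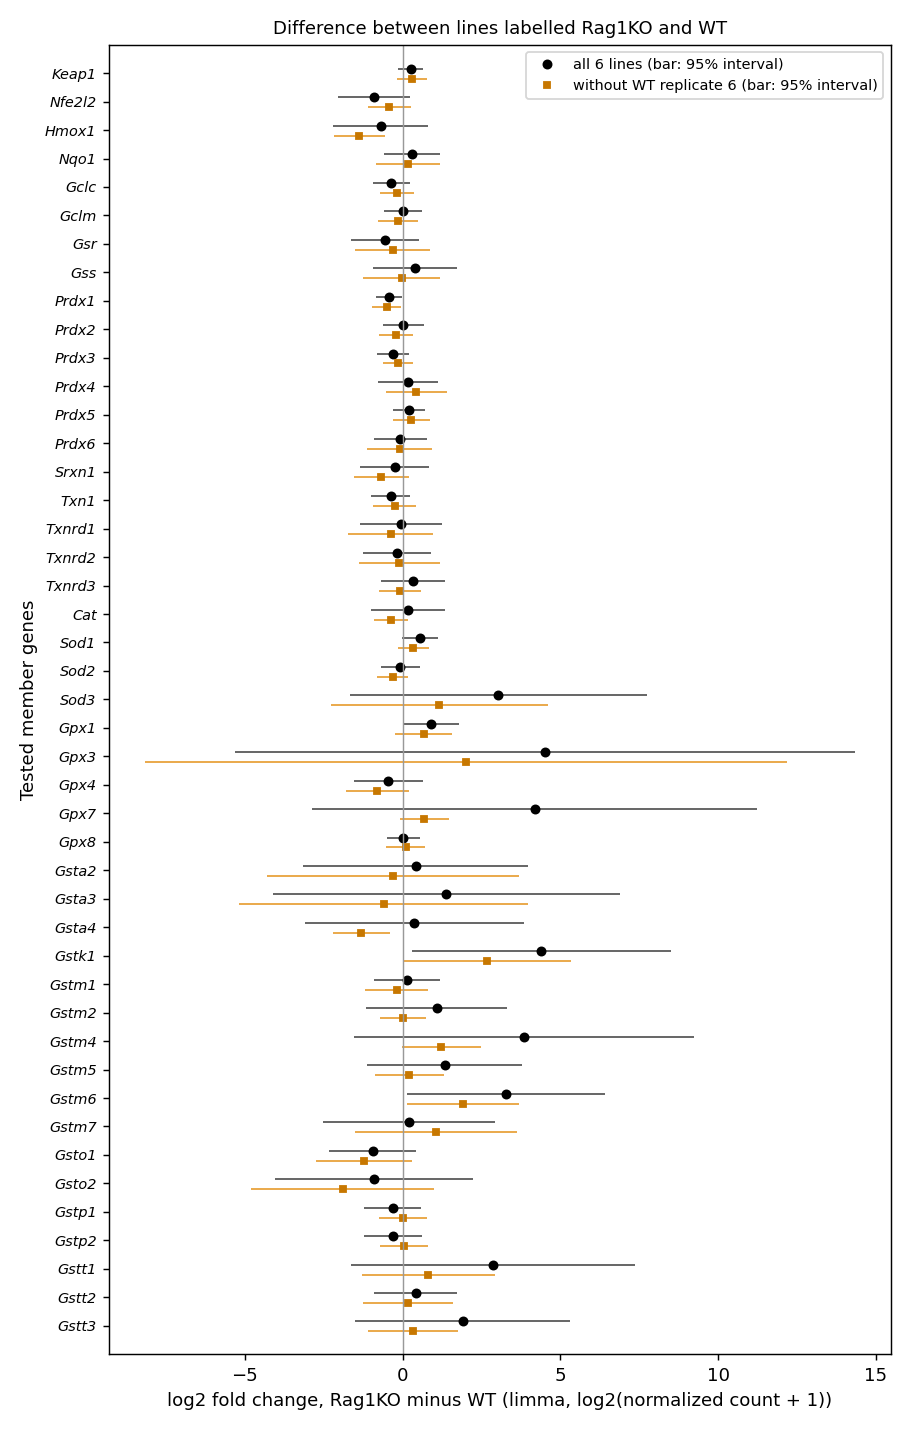
Difference between lines labelled Rag1KO and lines labelled WT for the 45 tested members (y axis), as the log2 fold change on the log2(normalized count + 1) scale (x axis). Black points use all 6 lines and orange squares leave out WT replicate 6, with bars for 95% intervals; the widest intervals belong to Gpx3, Gpx7, Sod3 and glutathione transferases, and several points on the right, such as Gpx7 (4.18 against 0.68), lie near 0 in the second fit.

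Many of the large differences lay in a single line. In the line labelled WT 6, 23 of the 45 tested members had their lowest value (51.1%, against 30.2% of all genes tested), and 7 had their highest (15.6%, against 27.4%). Values there were at least 10-fold below the mean of the other 5 lines for 12 members (26.7%), against 10.5% of all genes tested. In each of the other lines 1 or 2 members were that low. These were Gpx3, Gsta2 and Gsta3, which are also among the 12, so their low values were not particular to WT 6. Gpx3, Gpx7, Gsta3, Gstk1, Gstm4 and Gstm6 had no read in WT 6, and no other line lacked reads for any tested member. The members together took 0.428%, 0.526% and 0.368% of reads in the lines labelled Rag1KO, and 0.482%, 0.449% and 0.384% in the lines labelled WT. In whole-culture RNA, fewer cells of a type and less RNA per cell cannot be told apart.

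**Figure D2:**
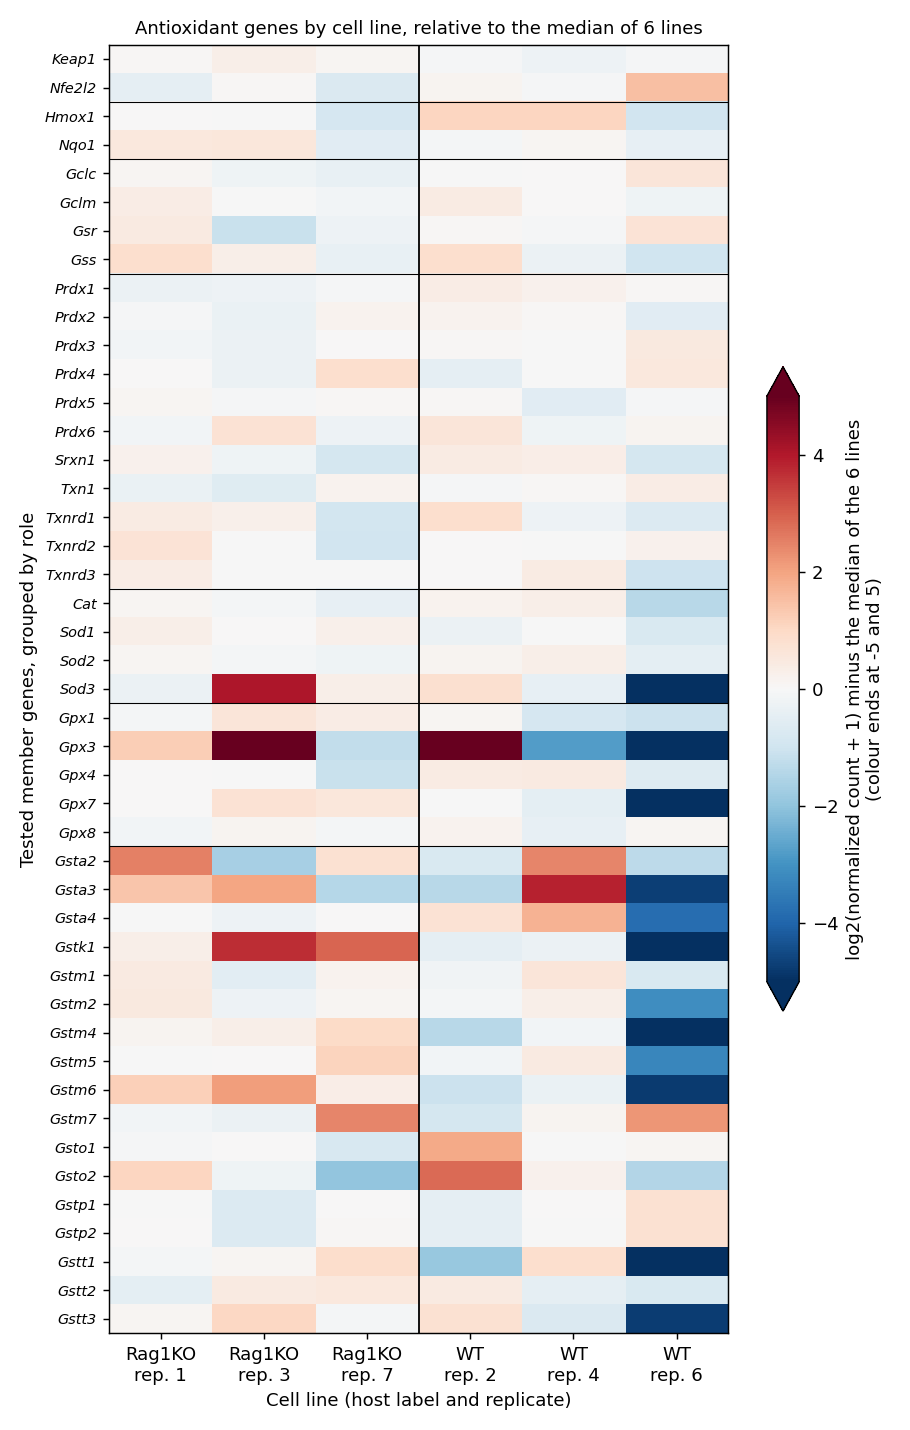
Each of the 45 tested members (rows, grouped by role) in each of the 6 cell lines (columns), as log2(normalized count + 1) minus the median of the 6 lines; red is above and blue below the median, and colour ends at -5 and 5. The darkest blue cells gather in the WT replicate 6 column, among glutathione transferases, Gpx3, Gpx7 and Sod3, while rows of peroxiredoxins and of glutathione synthesis genes stay pale in all columns.

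Nfe2l2 encodes NRF2 (chr2:75675513-75704641, mm10). It had 6508, 9258 and 5403 normalized counts in the lines labelled Rag1KO 1, 3 and 7, against 9720.2, 8644 and 25281 in the lines labelled WT 2, 4 and 6. A single line set the difference, since WT 6 was 3.2 times the mean of the other 5 lines, and the rest overlapped. The means were 7056 ± 1985 and 14548 ± 9310.3 (SD, n = 3 each), the log2 fold change was -0.90 with a standard error of 0.46, and limma gave an adjusted p of 0.85. Without WT 6 it was -0.41. Keap1, the adaptor that delivers NRF2 to a ubiquitin ligase (chr9:21229730-21239361), had 3453, 4124 and 3601 normalized counts in the lines labelled Rag1KO and 3254, 2791 and 3268 in the lines labelled WT. The 2 sets did not overlap, with means of 3726 ± 352 and 3104 ± 271, and the difference was small, at 1.2-fold higher in the lines labelled Rag1KO (log2 fold change 0.26, 95% interval -0.14 to 0.66, limma adjusted p = 0.85). It was of similar size without WT 6, at 0.30.

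Hmox1 and Nqo1 are widely used readouts of NRF2 activity. Hmox1, which breaks down haem (chr8:75093621-75100589), had 10432, 9894 and 5642 normalized counts in the lines labelled Rag1KO, and 21676, 21429.6 and 5267 in the lines labelled WT. The lines labelled WT 2 and WT 4 held more than any line labelled Rag1KO, and WT 6, the line highest in Nfe2l2, held the least. In the other 5 lines Hmox1 and Nfe2l2 were both lowest in Rag1KO 7 and highest in WT 2. With all 6 lines the log2 fold change was -0.69 (standard error 0.62, limma adjusted p = 0.85). Without WT 6 it was -1.37, or 2.58-fold lower in the lines labelled Rag1KO, with limma adjusted p = 0.98, while DESeq2 on the same 5 lines gave a log2 fold change of -1.31 and an adjusted p of 0.0473. Hmox1 was the only member that passed under any fit, in a comparison where 0.901% of genes passed. That fit was chosen after seeing the data, and in its 5 lines host label and sex-linked expression cannot be told apart. Nqo1, a quinone reductase, had 1683, 1733 and 794 normalized counts in the lines labelled Rag1KO and 1103, 1253 and 891 in the lines labelled WT, which overlapped (log2 fold change 0.30, standard error 0.36).

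**Figure D3:**
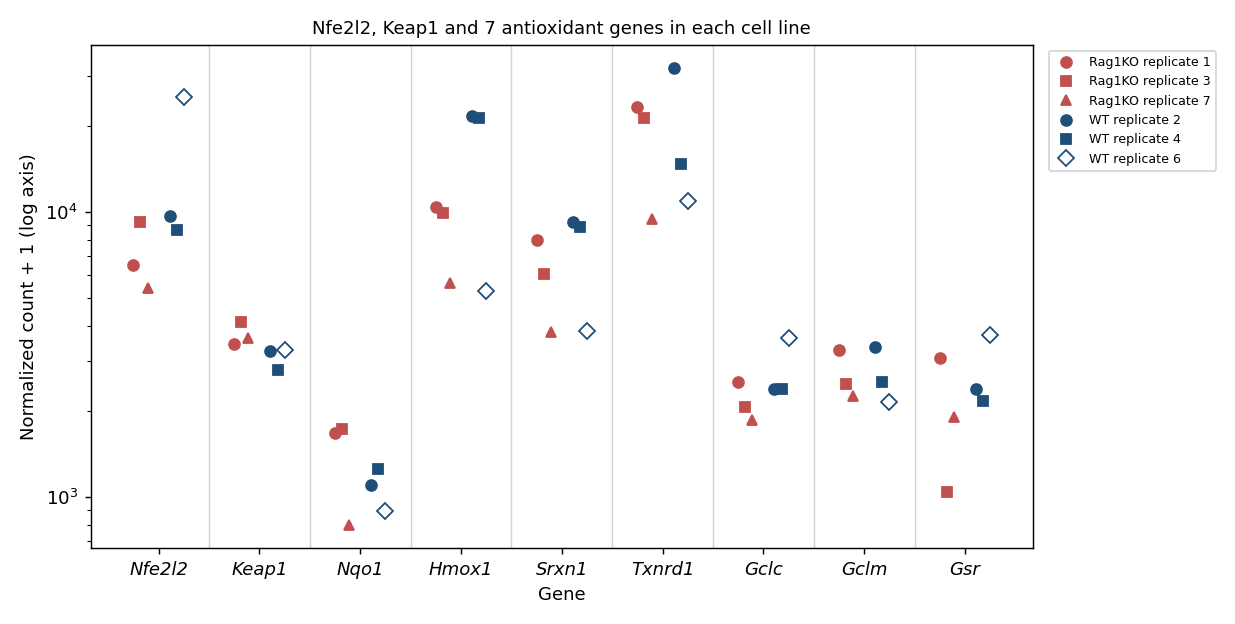
Normalized count + 1 (log axis) of Nfe2l2, Keap1 and 7 further antioxidant genes (x axis) in the 3 lines labelled Rag1KO (red) and the 3 labelled WT (blue, WT replicate 6 as an open diamond). WT replicate 6 is the highest line for Nfe2l2 (25281), Gclc (3609) and Gsr (3690.5) and the lowest for Hmox1 (5267), and the Keap1 points of the lines labelled Rag1KO lie just above those of the lines labelled WT.

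Glutathione synthesis and reduction genes showed no difference between labels beyond the spread of the lines. Of Gclc, Gclm, Gss and Gsr, none passed the test, 2 were above 0 and 2 below, and the median log2 fold change was -0.18, or -0.15 without WT 6. Gclc, the catalytic subunit of glutamate-cysteine ligase, had 2529.9, 2062 and 1862 normalized counts in the lines labelled Rag1KO and 2389.8, 2393 and 3609 in the lines labelled WT. Gclm, its modifier subunit, had 3284, 2491 and 2269 in the lines labelled Rag1KO and 3363, 2535 and 2157 in the lines labelled WT, with a log2 fold change of 0.00 and a 95% interval of -0.60 to 0.61. The read ratio of the catalytic to the modifier subunit was 0.770, 0.828 and 0.821 in the lines labelled Rag1KO and 0.711, 0.944 and 1.67 in the lines labelled WT. The ratio was highest in WT 6. It is a ratio of reads, not adjusted for transcript length. Gss, glutathione synthetase, had 2688, 1824 and 1171 normalized counts in the lines labelled Rag1KO and 2668, 1247 and 758 in the lines labelled WT, and varied within each label more than between labels. Gsr, glutathione reductase, had 3080.0, 1043 and 1913 in the lines labelled Rag1KO and 2403, 2166 and 3690.5 in the lines labelled WT. Its lowest value lay in Rag1KO 3 and its highest in WT 6.

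Glutathione peroxidases included the member with the highest mean level and the most variable one. Per length of exon, Gpx4, which reduces lipid hydroperoxides in membranes, had the highest mean of all 52 members, at 15016 normalized counts per kilobase over the 6 lines (range 7174 to 21094), ahead of Prdx1 at 7849. It was the highest member in Rag1KO 1, WT 2 and WT 4. Per kilobase, Gpx3 was above it in Rag1KO 3 (43478), Txn1, Prdx1 and Gstp1 in Rag1KO 7 (8358, 7325 and 7209) and Gstp1 and Gstp2 in WT 6 (11858 and 10083). Gpx4 had 27205, 26266 and 12367 normalized counts in the lines labelled Rag1KO and 35899.9, 36366 and 17221 in the lines labelled WT. The sets overlapped through WT 6 alone (log2 fold change -0.45, standard error 0.45; -0.81 without it). Gpx1, the cytosolic peroxidase, had 7375, 11948 and 9989.9 normalized counts in the lines labelled Rag1KO and 8239, 4359.5 and 3688 in the lines labelled WT, with means of 9771 ± 2294 and 5429 ± 2457. It was 1.88-fold higher in the lines labelled Rag1KO (log2 fold change 0.91, 95% interval 0.03 to 1.79, limma adjusted p = 0.85), with 1 line labelled WT inside their range. Gpx8, an endoplasmic reticulum member, spanned 3528 to 5351 normalized counts over the 6 lines, and its log2 fold change was 0.03. Gpx2, Gpx5 and Gpx6 had no read in any line, which allows up to 3 reads in each.

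Gpx3, the secreted plasma peroxidase, had 172, 78826 and 30.0 normalized counts in the lines labelled Rag1KO and 3310.2, 9.66 and 0 in the lines labelled WT. Rag1KO 3 stood above all others and the remaining lines were spread over both labels, so the fitted log2 fold change of 4.52 had a standard error of 4.01. It was 1.16 without Rag1KO 3, 2.0 without WT 6 and 7.85 without WT 2. Sod3, the extracellular superoxide dismutase, showed the same lines at its ends, with 1729.7, 35147 and 2594 normalized counts in the lines labelled Rag1KO and 3687, 1575 and 48.4 in the lines labelled WT (log2 fold change 3.03, standard error 1.92; 1.68 without Rag1KO 3 and 1.16 without WT 6). In both of these secreted enzymes Rag1KO 3 was highest, WT 2 next and WT 6 lowest. They were the 2 members that Rag1KO 3 held at 10 times or more the mean of the other lines. Gpx7, an endoplasmic reticulum peroxidase, had 1722, 2869 and 2526 normalized counts in the lines labelled Rag1KO and 1717, 1218 and 0 in the lines labelled WT. The labels did not overlap, but the values of Rag1KO 1 and WT 2 were close, and the log2 fold change of 4.18 (standard error 2.88), which depends on the pseudocount because WT 6 had no read, was 0.68 without that line and 6.05 without WT 2. DESeq2 and edgeR, with all 6 lines, gave 1.29.

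**Figure D4:**
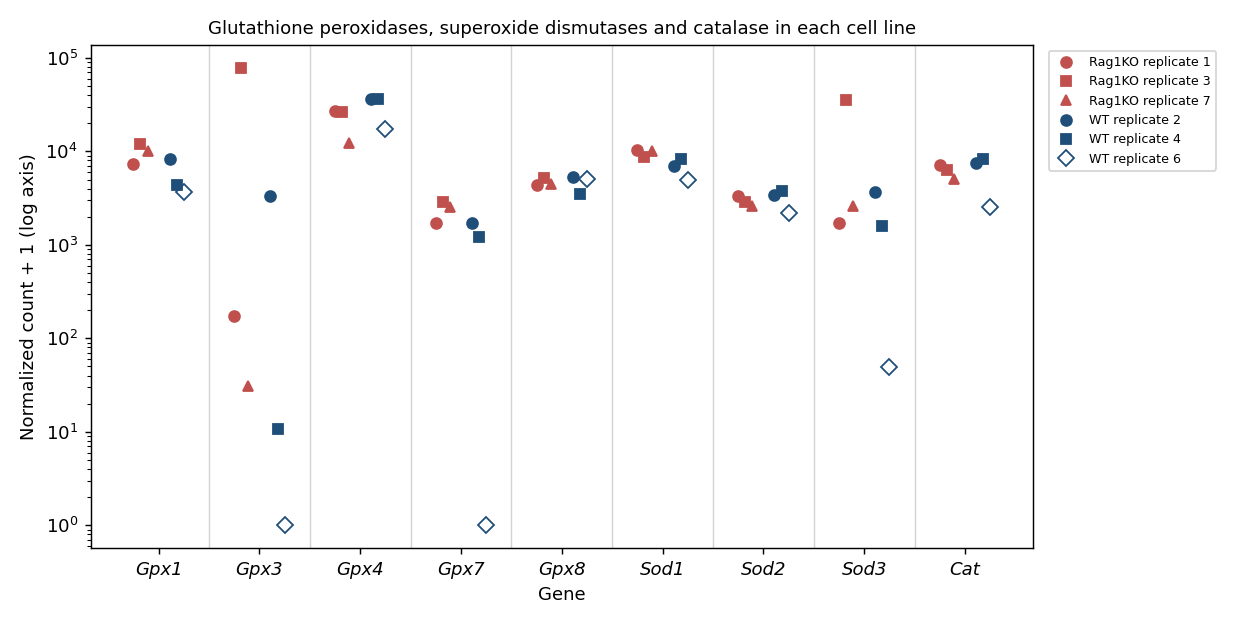
Normalized count + 1 (log axis) of 5 glutathione peroxidases, 3 superoxide dismutases and catalase (x axis) in the 3 lines labelled Rag1KO (red) and the 3 labelled WT (blue, WT replicate 6 as an open diamond). Gpx3 spreads from no read to 78826 and Sod3 from 48.4 to 35147, Gpx7 is missing in WT replicate 6 alone, and Gpx8, Sod1 and Sod2 keep within a narrow band.

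The cytosolic superoxide dismutase Sod1 had 10360.2, 8616 and 10122 normalized counts in the lines labelled Rag1KO and 6931, 8339.5 and 4951 in the lines labelled WT. The labels did not overlap. The means were 9699 ± 946 and 6740.3 ± 1702 (SD, n = 3 each), 1.47-fold higher in the lines labelled Rag1KO, with a log2 fold change of 0.55, a 95% interval of -0.02 to 1.13 and limma adjusted p = 0.85. It was 0.35 without WT 6. Mitochondrial Sod2 had 3313, 2843 and 2613 normalized counts in the lines labelled Rag1KO and 3412, 3785 and 2195 in the lines labelled WT. Catalase, encoded by Cat, had 7082, 6308 and 5081 in the lines labelled Rag1KO and 7449, 8225 and 2529 in the lines labelled WT. For both, WT 2 and WT 4 were above all lines labelled Rag1KO and WT 6 below them, so the log2 fold changes were -0.07 and 0.18 with all lines and -0.30 and -0.36 without WT 6. WT 6 was the lowest line for all 4 genes of superoxide dismutases and catalase.

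Glutathione transferases, which attach glutathione to electrophiles, made up 21 of the 52 members and varied most. The median ratio of the highest to the lowest line, on the normalized count + 1 scale, was 20.3 over the 17 tested, against 1.97 over the 11 genes of peroxiredoxins and the thioredoxin system and 2.46 over all genes tested. Without WT 6 it was 5.08, against 1.71 and 2.01. These ratios were not adjusted for level. The tested transferases included low genes such as Gsta2 (1.16 to 38.3 normalized counts). Among the 11 genes of peroxiredoxins and the thioredoxin system the lowest value was 346 (Txnrd2 in Rag1KO 7). The part of level in the ratios was not tested. WT 6 was the lowest line for 11 of the 17 and at least 10-fold below the mean of the other 5 for 9 (52.9%, against 10.5% of all genes). Of these 9, Gsta2 and Gsta3 were also that low in at least 1 other line. None passed the test in limma, 13 of the 17 had a log2 fold change above 0, and their median was 0.42. Without WT 6, 11 of 20 were above 0 and the median was 0.01.

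Gstk1, the kappa-class transferase of mitochondria and peroxisomes (chr6:42245935-42250447), had 55.6, 593 and 337 normalized counts in the lines labelled Rag1KO and 32.2, 35.7 and 0 in the lines labelled WT. All 3 lines labelled Rag1KO were higher, with Rag1KO 1 closest to the lines labelled WT. The means were 329 ± 269 and 22.7 ± 19.7, the log2 fold change was 4.40 (standard error 1.67, limma adjusted p = 0.85), and 2.69 without WT 6. Its adjusted p in DESeq2 was 0.355. Gstm6 had 62.3, 118 and 33.9 normalized counts in the lines labelled Rag1KO and 12.1, 21.2 and 0 in the lines labelled WT, again without overlap (log2 fold change 3.27, limma adjusted p = 0.85; 1.91 without WT 6). Gstm4 had 436, 495 and 771 in the lines labelled Rag1KO and 151, 365 and 0 in the lines labelled WT, without overlap (log2 fold change 3.85, standard error 2.20; 1.22 without WT 6, and 1.73 with all lines in both DESeq2 and edgeR). These 3 genes had no read in WT 6, so the size of each difference depended on that line and on the pseudocount. Leaving out each line in turn gave 2.69 to 5.39 for Gstk1, 1.91 to 4.15 for Gstm6 and 1.22 to 5.48 for Gstm4. Gsta3, an alpha-class enzyme, had 66.1, 102 and 8.72 normalized counts in the lines labelled Rag1KO and 9.06, 371 and 0 in the lines labelled WT, which overlapped; its log2 fold change was 1.39 with all lines and -0.59 without WT 6.

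The remaining transferases are described here after their values were seen. Gstm2, Gstm4, Gstm5 and Gstm6 lie with Gstm1, Gstm3 and Gstm7 in 1 cluster on chromosome 3, and the cluster was not uniformly low in WT 6. Gstm2 had 9842, 5830.4 and 7570.0 normalized counts in the lines labelled Rag1KO and 6527, 8668 and 817 in the lines labelled WT, while Gstm1 had 11525, 5737 and 9426 in the lines labelled Rag1KO and 7399, 12719 and 4969 in the lines labelled WT. The ratio of Gstm1 to Gstm2 reads was 0.984 to 1.25 in the lines labelled Rag1KO, 1.13 and 1.47 in WT 2 and WT 4, and 6.08 in WT 6. Gstm7 had its 2 highest values in Rag1KO 7 (131) and WT 6 (110.0), against 12.1 to 25.1 in the other lines. On chromosome 10, Gstt1 had 1055, 1191 and 2044 normalized counts in the lines labelled Rag1KO and 300.1, 2018 and 9.68 in the lines labelled WT, and Gstt3 had 745, 1429.8 and 663 in the lines labelled Rag1KO and 1179, 429 and 25.5 in the lines labelled WT. WT 6 was far below the other lines in both, whereas their neighbour Gstt2 spanned 42.2 to 106 normalized counts over all 6. Gsta4, which acts on the lipid peroxidation product 4-hydroxynonenal, had 908, 783 and 941 normalized counts in the lines labelled Rag1KO and 1508, 3108 and 64.2 in the lines labelled WT. WT 2 and WT 4 were above the lines labelled Rag1KO and WT 6 below, so its log2 fold change was 0.38 with all lines and -1.31 without WT 6.

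Omega- and pi-class transferases did not share the low values of WT 6 to that extent. Gsto1 had 7641, 8044 and 4612 normalized counts in the lines labelled Rag1KO and 29631, 7967 and 8477 in the lines labelled WT, and Gsto2 463, 191 and 56.2 in the lines labelled Rag1KO and 1585, 258 and 79.2 in the lines labelled WT. WT 2 was the highest line for both of these neighbours on chromosome 19. Gstp1 had 10885, 6854 and 11159 normalized counts in the lines labelled Rag1KO and 7925, 10976 and 18357 in the lines labelled WT, highest in WT 6. Gstp2 followed it, with a Gstp1 to Gstp2 read ratio of 1.62 to 1.69 in all 6 lines, and since the genes are near-identical copies the split of reads between them is uncertain. Gstp3 had at most 1.93 normalized counts, below the floor of 3 reads. Gsta1, Gsta2, Gstm3 and Gstt4 were also low, with highest values of 35.5, 38.3, 16.4 and 118.

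**Figure D5:**
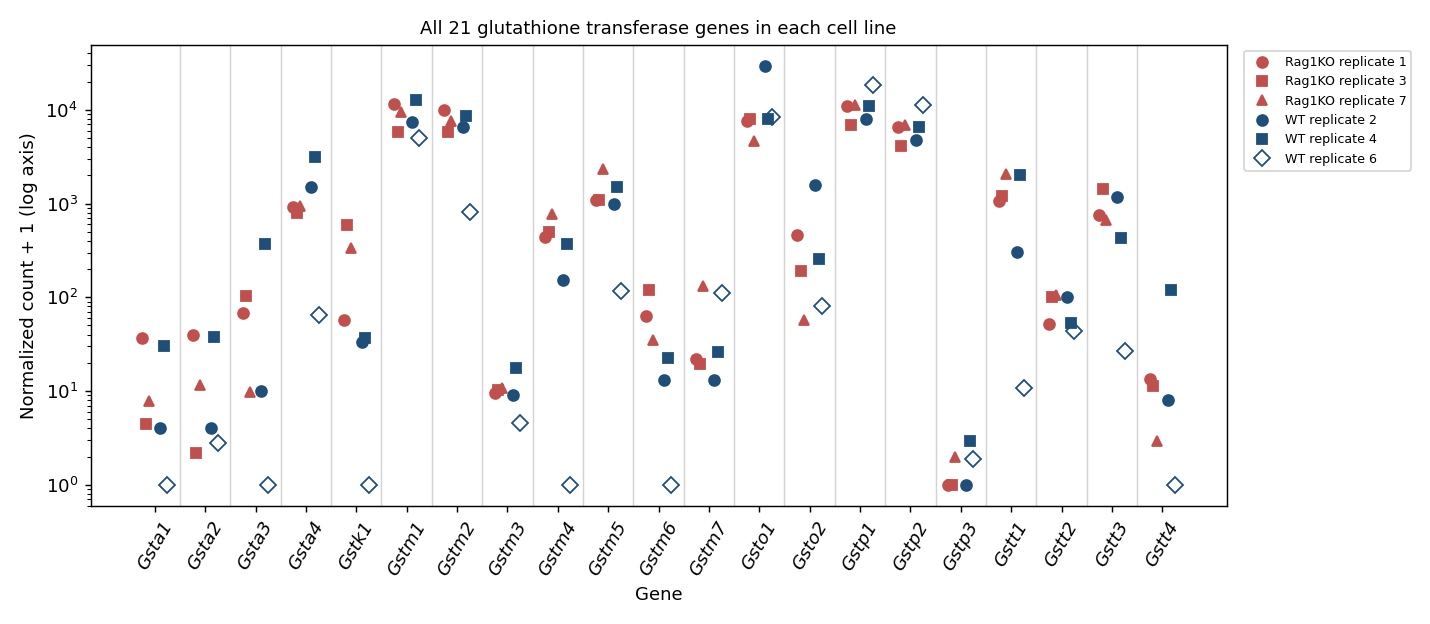
Normalized count + 1 (log axis) of the 21 glutathione transferase genes (x axis) in the 3 lines labelled Rag1KO (red) and the 3 labelled WT (blue, WT replicate 6 as an open diamond). The open diamond is lowest for 11 of the 17 tested genes and sits at no read for Gsta1, Gsta3, Gstk1, Gstm4, Gstm6 and Gstt4, but is highest for Gstp1 (18357) and Gstp2 (11222).

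Peroxiredoxins and the thioredoxin system had the lowest median ratio of highest to lowest line with all 6 lines (1.97), but not without WT 6, when it was 1.71, against 1.56 for superoxide dismutases and catalase and 1.64 for Nfe2l2 and Keap1. Prdx1, an abundant cytosolic peroxiredoxin (chr4:116685544-116700822), had 19042, 19611 and 22290.4 normalized counts in the lines labelled Rag1KO and 30080.1, 27509.8 and 24769.6 in the lines labelled WT. Every line labelled Rag1KO was below every line labelled WT, and WT 6 was the line labelled WT closest to them. The means were 20314 ± 1735 and 27453 ± 2656 (SD, n = 3 each), with a log2 fold change of -0.43, a 95% interval of -0.86 to -0.01, and limma adjusted p = 0.85. Without WT 6 it was -0.51. Among the other peroxiredoxins the log2 fold changes were 0.02 for Prdx2, -0.31 for Prdx3, 0.18 for Prdx4, 0.22 for Prdx5 and -0.07 for Prdx6, and each of these overlapped between labels.

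Sulfiredoxin, encoded by Srxn1, repairs overoxidized peroxiredoxins. It had 7989, 6070.3 and 3795 normalized counts in the lines labelled Rag1KO and 9231, 8846 and 3818 in the lines labelled WT, with Rag1KO 7 and WT 6 nearly level and low (log2 fold change -0.25; -0.67 without WT 6). Thioredoxin, Txn1, had 6110.1, 5139.9 and 8784 normalized counts in the lines labelled Rag1KO and 7480.5, 8015 and 9962 in the lines labelled WT (log2 fold change -0.37, standard error 0.25). Its cytosolic reductase Txnrd1 had 23471, 21411 and 9434 in the lines labelled Rag1KO and 32186, 14761 and 10928 in the lines labelled WT (log2 fold change -0.04, standard error 0.53). Both genes overlapped between labels. Txnrd3 had 1109.7, 841 and 851 normalized counts in the lines labelled Rag1KO and 852, 1142 and 415 in the lines labelled WT (log2 fold change 0.32; -0.09 without WT 6), and mitochondrial Txnrd2 spanned 346 to 1073 over the 6 lines. Of the 11 genes, 4 had a log2 fold change above 0 and their median was -0.07.

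Genes that work beside these members were taken from 11 further lists with 174 different genes. No gene of these lists had an adjusted p under 0.05 in limma, and the smallest was 0.85. In the list of lipid peroxidation and ferroptosis genes, 3 of 13 tested had a log2 fold change above 0, the median was -0.49 (-0.44 without WT 6), and 3 passed an unadjusted p of 0.05, where 4.67% of all genes did. The labels did not overlap for 4 of the 13, each lower in the lines labelled Rag1KO, where 6.49% of all genes were. Acsl4, which activates polyunsaturated fatty acids for later use in phospholipids, had 3849, 4609 and 4886 normalized counts in the lines labelled Rag1KO. In the lines labelled WT it had 8056, 5740.3 and 10694, without overlap (log2 fold change -0.84, standard error 0.26). Haem and iron genes had 7 of 16 above 0 and a median of -0.22. The ferritin heavy chain Fth1, which stores iron and is held by this list, the ferroptosis list and the list of NRF2 targets, had 67238, 57482 and 62073 normalized counts in the lines labelled Rag1KO and 83092, 91518 and 137621 in the lines labelled WT (log2 fold change -0.71; -0.49 without WT 6). Ncoa4, the receptor that takes ferritin to lysosomes, had 5319.5, 6056 and 4349 in the lines labelled Rag1KO and 6927, 7302 and 7661 in the lines labelled WT (-0.49). Fth1, Ncoa4 and Acsl4 are named because they had the lowest p of their lists, and none of them passed the adjusted threshold.

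Further NRF2 targets had 13 of 24 above 0, with a median log2 fold change of 0.16 (-0.14 without WT 6), and 4 passed an unadjusted p of 0.05, where 4.67% of all genes did. Of the 24, 1 (Srxn1) is also a member. The carbonyl reductase gene Cbr3 had 1286, 1149 and 667 normalized counts in the lines labelled Rag1KO and 593, 557 and 352 in the lines labelled WT (log2 fold change 1.03). Taldo1, the transaldolase of the pentose phosphate pathway, had 4627, 5172 and 2875 in the lines labelled Rag1KO and 7281, 5778 and 6524 in the lines labelled WT (-0.67). Targets of the same factor thus lay on both sides of 0. Among NRF2 partners and regulators, 10 of 17 were above 0 (median 0.12, none at an unadjusted p under 0.05), and Sqstm1, the autophagy receptor that binds KEAP1, had 25757, 45561 and 23459 normalized counts in the lines labelled Rag1KO and 52527, 43073 and 100886 in the lines labelled WT (-1.02; -0.66 without WT 6). WT 6 was highest for both Sqstm1 and Nfe2l2.

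Membrane glutathione transferases and drug efflux pumps had 7 of 16 above 0 and a median of -0.12. The efflux pump gene Abcg2 had 1424, 2252 and 2510.1 normalized counts in the lines labelled Rag1KO and 470.3, 1029 and 458 in the lines labelled WT, without overlap (log2 fold change 1.73, standard error 0.41, limma adjusted p = 0.85; 1.52 without WT 6). Abcc3, which exports glutathione and glucuronide conjugates, had 256, 1875 and 990.1 in the lines labelled Rag1KO and 24.2, 252 and 0 in the lines labelled WT. Both pumps were higher in all 3 lines labelled Rag1KO, but for Abcc3 the values of Rag1KO 1 and WT 4 were nearly level. The log2 fold change of Abcc3 was 5.40 with all lines and 3.29 without WT 6, where it had no read. In the list for selenoprotein synthesis, 8 of 18 were above 0 (median -0.04), and Sephs2, which makes the selenium donor, had 1332, 1140.1 and 913 normalized counts in the lines labelled Rag1KO and 2221, 1771 and 2097 in the lines labelled WT (log2 fold change -0.86, standard error 0.22, limma adjusted p = 0.85; -0.83 without WT 6). Among metallothioneins and metal chaperones 5 of 9 were above 0 (median 0.09), and Mt1, a metal-binding thiol protein, had 1276, 1600.1 and 1279.7 normalized counts in the lines labelled Rag1KO and 2332, 4847 and 7877 in the lines labelled WT (log2 fold change -1.70, standard error 0.45; -1.29 without WT 6). Abcg2, Sephs2 and Mt1 did not overlap between labels, and none of them passed adjustment over 16137 genes. Genes without overlap numbered 2 of 16 in the efflux list (12.5%), 1 of 18 in the selenoprotein list (5.56%) and 1 of 9 in the metallothionein list (11.1%). Over all genes tested the share was 12.1%, so none of the 3 lists was clearly above it.

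The other lists sat near 0 or held few tested genes. Cystine uptake, cysteine supply and glutathione breakdown had 7 of 13 above 0 (median 0.12), led by Ggt7, a gamma-glutamyltransferase family gene, with 1617, 569 and 2527 normalized counts in the lines labelled Rag1KO and 209, 604 and 25.5 in the lines labelled WT. Slc7a11, the cystine importer of that list, is given after its values were seen, with 388, 231 and 1621 in the lines labelled Rag1KO and 446, 512 and 6235 in the lines labelled WT. WT 6 held the most by far, and the log2 fold change was -1.10 with it and 0.14 without. Glutaredoxins, thioredoxin partners and methionine sulfoxide reductases had 7 of 18 above 0 (median -0.11). Txndc17, a thioredoxin-like protein, had 3592, 3573 and 3704 normalized counts in the lines labelled Rag1KO and 4372, 4699 and 4659 in the lines labelled WT. The difference was small and without overlap (log2 fold change -0.34). Txndc17 was the 1 gene of these 18 without overlap (5.56%, against 12.1% of all genes tested). NADPH supply had 8 of 18 above 0 (median -0.15), and the proton-driven transhydrogenase Nnt was low throughout, with 3.83, 4.63 and 13.6 in the lines labelled Rag1KO and 20.1, 15.4 and 15.8 in the lines labelled WT. Oxidant-producing oxidases had 8 of 16 genes tested, 6 of them above 0 (median 0.95).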

How the data were processed

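RNA of 6 cell lines was sequenced, 3 labelled Rag1KO and 3 labelled WT. Collagenase, dispase and trypsin digests of tumours were cultured in DMEM, and libraries were made with a stranded TruSeq kit, per the labels' protocols. Per the submitters' processing notes, the build was mm10 and STAR 2.7.9a, Trim Galore 0.6.6, DESeq2 and FastQC were used, in roles not given. The read counter and annotation were not given in the sources used here. The authors deposited 1 normalized count (signal) per gene and library, without replicates pooled. Multiplied by 1 size factor per library, all 55401 values of each library were whole reads within 0.01, and the factors equalled median-of-ratios factors (largest relative difference 1.21e-10). Libraries held 55409583 to 62998051 reads, and 3 reads, the floor for a count of 0, were 2.64 to 3.48 normalized counts. Such limits cover counting error only.

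Members were found by symbol, and coordinates and exon lengths came from GENCODE M21 (55141 IDs found). Low genes were removed with filterByExpr of edgeR, applied to the recovered reads, which left 16137. limma 3.58.1 with a mean-variance trend was fitted in R 4.3.3 to log2(value + 1). Fold changes are on that scale, which understates those of low genes but can exceed the fold of the count models where 1 line has no read. The contrast was Rag1KO minus WT, two-sided, with Benjamini-Hochberg adjustment over all genes, a threshold of 0.05 and 95% intervals. Alternatives were edgeR 4.0.16 (quasi-likelihood, TMM and RLE), DESeq2 1.42.0, other scalings, pseudocount and filters, and leaving out each line. The fits were run on simulated data. Recovery of the median simulated fold was required only at a spread smaller than that of the real libraries. Per-line values are given for 17 members fixed by name, the lowest p of each family, members whose groups did not overlap, the 6 most variable, and up to 3 genes of lowest p per further list. Members and lists were chosen with earlier results of these data known. A gene that the rule for naming genes would give is not reported here.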

Additional observations from a re-analysis of the deposited data

How the results depend on the processing

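At the threshold of 0.05, 1 of 16137 genes passed in limma, and 0 of the 45 tested members. DESeq2 called 65 genes and no member, edgeR called 0 genes with TMM and 0 with RLE factors (717 with TMM at an unadjusted p under 0.05), and limma called 0 to 5 genes when each line was left out in turn, 5 of them without WT 6. DESeq2 without WT 6, an alternative chosen after seeing the data, called 151 genes and 1 member, Hmox1. Members whose labels did not overlap numbered 7, and 9 to 13 when a line was left out, which leaves fewer values to overlap in any gene: over all genes the share was 12.1% with all lines and 20.5% without WT 6. With all lines the count was 6 under TMM scaling and 9 under library size scaling. It was 5 with a filter of at least 1 CPM in 3 libraries. Of the 25 members named by the rule, 17 kept the sign of their log2 fold change under every alternative run, and 8 did not. Gclm (0.00 with all lines) was -0.0032 under TMM scaling, -0.13 in DESeq2 without WT 6 and -0.15 to 0.18 in limma when a line was left out. Gss was -0.036 in DESeq2 without WT 6 and -0.026 to 0.88 with a line left out. Gsta3 was -1.09 in DESeq2 and in edgeR with TMM or RLE factors, -1.68 in DESeq2 without WT 6, and -0.59 to 3.68 in limma with a line left out. Txnrd3 was -0.084 and Cat -0.34 in DESeq2 without WT 6. With a line left out, limma gave -0.67 to 0.038 for Srxn1, -0.38 to 0.40 for Txnrd1, -0.091 to 0.64 for Txnrd3, -0.36 to 0.49 for Cat and -0.30 to 0.088 for Sod2. The cause of these reversals was not tested. No paired analysis was possible because the labels share no replicate number between Rag1KO (1, 3, 7) and WT (2, 4, 6). With 3 lines per label and a median standard error of 0.45 over the members on the log2 scale, small differences were not detectable. Large differences could also miss the threshold. Gstk1, with a log2 fold change of 4.40 and no overlap, had a limma adjusted p of 0.85. Rag1, with a log2 fold change of 6.60, had a limma adjusted p of 0.338. That no member passed therefore does not exclude large differences.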
